A study of Mus musculus with 13 samples.

Results

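The genes described here encode the CD3 chains of the T cell receptor complex and other surface or signaling proteins by which T cells are recognized: Cd3d, Cd3e, Cd3g, Cd4, Cd8a, Cd8b1, Cd5, Cd28 and Lck. They were taken by symbol from the count table, by a rule that used no measured value, and all 9 were found among its 24421 genes, of which 20812 had a count above 0 in at least 1 library. RNA was sequenced in 13 libraries from MMTV-HER2/Neu mice, 11 from mammary tumors and 2 from cancer-free mammary glands. Every mouse was of the 202Mul line on the FVB/N background, which carries a rat HER2/Neu transgene driven by the mouse mammary tumor virus promoter in breast epithelium, so the glands carried the transgene too. The labels give no other allele and call the genotype wild type, and the age at collection is not given in the sources used here.

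Primary untreated tumors (n = 3) and both glands came from mice without drug. Primary stavudine tumors (n = 3) came from mice given stavudine, a nucleoside inhibitor of reverse transcriptase, at 1 mg/mL in drinking water. Recurrent 17-DMAG tumors (n = 3) had regrown after 17-DMAG, an inhibitor of the chaperone HSP90 injected at 20 mg/kg, and those named recurrent 17-DMAG plus stavudine (n = 2) regrew after both drugs. Per the paper, stavudine began either before tumors appeared or together with 17-DMAG. The sample titles do not say which applied, so its onset and duration may differ between the stavudine groups. In this design the recurrent tumors differ from the primary ones in 17-DMAG exposure, past and continued, and in regrowth at once, and these cannot be told apart. Whole tissue was used, so fewer T cells and less RNA per T cell cannot be told apart either.

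The T cell receptor recognizes peptides on other cells but cannot signal by itself. The CD3 chains carry its signal into the cell, and the coreceptors CD4, on helper cells, and CD8, on cytotoxic cells, bring the kinase LCK to it. CD28 provides the costimulation that a resting T cell needs, and CD5 tunes receptor signaling down. T cells live in the normal mammary gland and in mammary tumors, and the mammary fat pad of the mouse also contains a lymph node, which is rich in T and B cells. In mice, CD4 and the CD8 alpha chain are in addition made by some dendritic cells.

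The 3 CD3 genes lie side by side on chromosome 9, and they are shown here because they are the part of the receptor complex that all T cells share. In GRCm38, Cd3g occupies chr9:44969572-44980431 on the minus strand, Cd3d occupies chr9:44981786-44987339 on the plus strand and Cd3e occupies chr9:44998740-45009627 on the minus strand. Cd3g and Cd3d point away from each other with 1354 bases between them. Cd8b1 (chr6:71322788-71337494) and Cd8a (chr6:71373427-71379173) are also neighbors, both on the plus strand and 35932 bases apart. Cd4 lies at chr6:124864692-124888221, Cd5 at chr19:10717116-10739002 and Lck at chr4:129548344-129573641, all on the minus strand, and Cd28 at chr1:60716800-60773359 on the plus strand. Cd3e overlaps the annotated genes Gm48719 and Gm48720, and Lck overlaps Mir8119, so some of their reads may be uncertain.

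Of the 9 genes, 6 had a promoter in the RefSeq table used (GRCm38.p6). The 250 bases before the annotated start are printed for the CD3 genes and for the farther start of Lck, 5′ to 3′ on the strand of the gene. Capitals mark exact matches on either strand to AGGAAG (an ETS core), TGTGGT (a RUNX core) or CTTTGA (a TCF/LEF core), 3 families of transcription factors known from T cells.
Cd3g, chr9:44980432-44980681: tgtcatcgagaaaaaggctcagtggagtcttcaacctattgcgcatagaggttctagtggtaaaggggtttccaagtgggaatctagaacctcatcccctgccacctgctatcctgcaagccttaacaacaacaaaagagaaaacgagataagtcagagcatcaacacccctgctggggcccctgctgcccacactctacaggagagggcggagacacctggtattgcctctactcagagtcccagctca
Cd3d, chr9:44981536-44981785: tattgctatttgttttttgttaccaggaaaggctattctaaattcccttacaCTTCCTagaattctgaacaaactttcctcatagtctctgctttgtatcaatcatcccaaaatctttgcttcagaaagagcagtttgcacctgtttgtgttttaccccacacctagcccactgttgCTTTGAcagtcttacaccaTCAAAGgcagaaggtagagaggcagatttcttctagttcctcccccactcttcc
Cd3e, chr9:45009612-45009861: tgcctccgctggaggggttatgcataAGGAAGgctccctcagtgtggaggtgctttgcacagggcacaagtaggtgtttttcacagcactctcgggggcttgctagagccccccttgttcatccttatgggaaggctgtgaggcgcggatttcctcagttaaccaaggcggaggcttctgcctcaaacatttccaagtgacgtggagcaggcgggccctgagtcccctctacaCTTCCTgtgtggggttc
Lck, chr4:129573642-129573891: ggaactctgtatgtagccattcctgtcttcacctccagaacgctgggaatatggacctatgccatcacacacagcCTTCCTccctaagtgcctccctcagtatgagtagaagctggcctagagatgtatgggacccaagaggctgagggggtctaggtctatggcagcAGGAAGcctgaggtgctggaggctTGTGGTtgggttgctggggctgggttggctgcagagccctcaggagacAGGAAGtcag

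The Cd3d promoter held 1 ETS and 2 TCF/LEF matches, that of Cd3e held 2 ETS matches, and that of Lck held 3 ETS matches and 1 RUNX match. None of these letters were in the Cd3g window. Among all 32851 promoters of the same length, 29.5% held the ETS letters, 4614 (14%) the RUNX letters and 13.8% the TCF/LEF letters, so such matches are common.

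No member was at 0 in any library. Counts per gene ranged from 2 to 151 in the tumors, and 1 of the 117 values was under 3 counts, the floor taken for detection: Cd8b1 in recurrent 17-DMAG 3. Library totals were 39921388 to 56887708 counts, and 3 counts equaled 0.0587 to 0.0695 CPM (counts scaled to library size with TMM factors) in all libraries but gland 2, where they equaled 0.107. Among counts from 1 to 10 over the whole table, 76.63% were even, as when both mates of a read pair are counted, so the counting error is larger than the counts alone imply. The error given below is therefore the spread between libraries. The labels do not say that replicates came from separate mice, and p-values then measure only the spread between these samples.

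Both cancer-free glands differed widely in all 9 members. Cd3e, which encodes the epsilon chain, was at 23.4 CPM in gland 1 and at 1.28 CPM in gland 2, an 18.2-fold difference. Cd4 differed most, with 29.1 CPM in gland 1 and 0.928 CPM in gland 2 (31.3-fold). Cd28 differed least, with 14.6 and 2.60 CPM (5.61-fold). Gland 1 was the higher one for 9 of 9.

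The other CD3 chains followed the same order, with 8.28 against 0.286 CPM for Cd3d and 13.8 against 1.46 CPM for Cd3g. The CD8 chains were at 16.1 against 0.928 CPM for Cd8a and 9.05 against 0.321 CPM for Cd8b1. Lck was at 23.9 in gland 1 and 1.96 CPM in gland 2, and Cd5 at 14.4 and 1.25 CPM. Over 16540 genes with at least 3 counts in both glands, the median ratio of gland 1 to gland 2 was 1.09 and 3.74% of genes reached 5-fold, against 9 of 9 members. With 1 library on each side, these ratios have no replicate check. They depend on the scaling: by library totals alone, without the TMM factor of 0.493 in gland 2, they ran from 12.8 for Cd28 to 71.5 for Cd4.

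**Figure D1:**
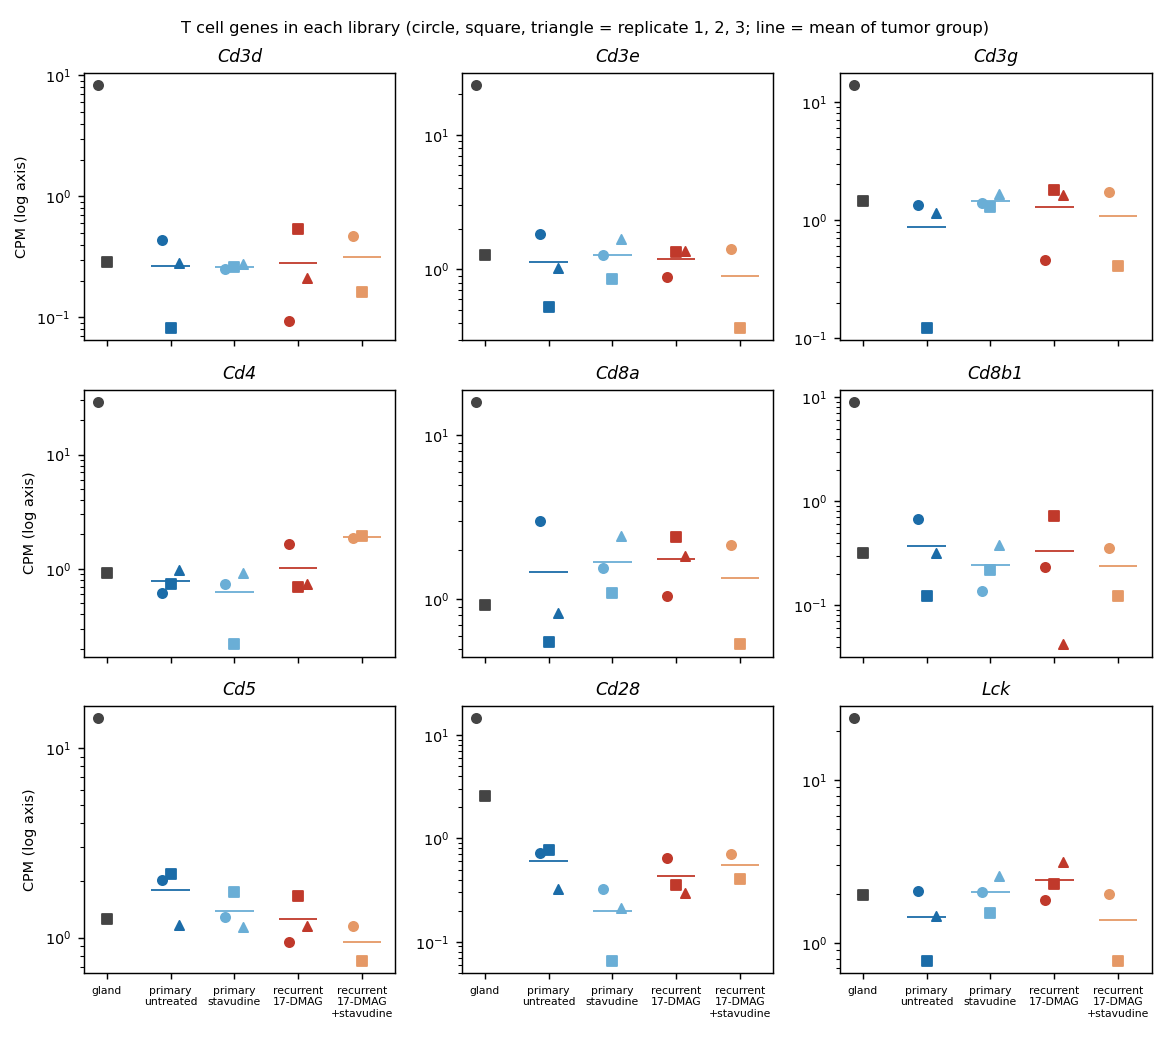
CPM of each of the 9 T cell genes (log axis) in every library, by group, with the glands at the left and the recurrent tumors at the right. Each point is a library and each line the mean of a tumor group. Gland 1 (circle in the gland column) lies above all 11 tumors for 9 of 9 genes, while gland 2 (square) lies among the tumors for 8 of 9.

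Gland 1 also stood above every tumor for all 9 members, by 5.34-fold over the highest tumor for Cd8a and up to 18.9-fold for Cd28. Gland 2 lay within the range of the 11 tumors for 8 of 9. The exception was Cd28, at 2.60 CPM in gland 2 and at most 0.775 CPM in any tumor. By library totals alone, gland 2 was below all tumors for Cd5 (0.615 CPM, against 0.802 CPM in the lowest tumor) and Cd8a (0.457 against 0.549 CPM).

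Markers of other cells moved between the glands as well. The 12 B cell genes summed to 345.4 CPM in gland 1 and to 6.67 CPM in gland 2, and the median ratio of the 11 that could be compared was 67.8. General leukocyte genes had a median ratio of 5.69, dendritic cell genes one of 2.77 and macrophage genes one of 1.62. Skeletal muscle genes went the other way, with 74.8 CPM in gland 1 and 5409 CPM in gland 2, and so did milk protein genes, with 28050 and 764700 CPM. Of 6 genes of lymphoid organization that could be compared, 4 were higher in gland 1. Among them were Ccl19, encoding a chemokine, at 13.7 and 0.214 CPM, and Ltb, encoding a lymphotoxin chain, at 16.8 and 0.78 CPM. Chst4, which could not be compared, was at 1.66 CPM in gland 1 and at 0 in gland 2. Madcam1, an adhesion molecule of vessels in mucosal lymphoid tissue, went the other way, at 1.45 and 5.50 CPM, as did Clu, at 377.3 and 1912 CPM. Clu was abundant in the tumors too, at 153.3 to 2157 CPM. Cxcl13, encoding a chemokine that draws B cells into follicles, was at 16.1 CPM in gland 1 and under the floor of 3 counts in gland 2. Ccl21a, another chemokine of lymph node stroma, was at 0 in every library, so it says nothing of a difference between the glands. The part of any of these in the difference between the glands was not tested.

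**Figure D2:**
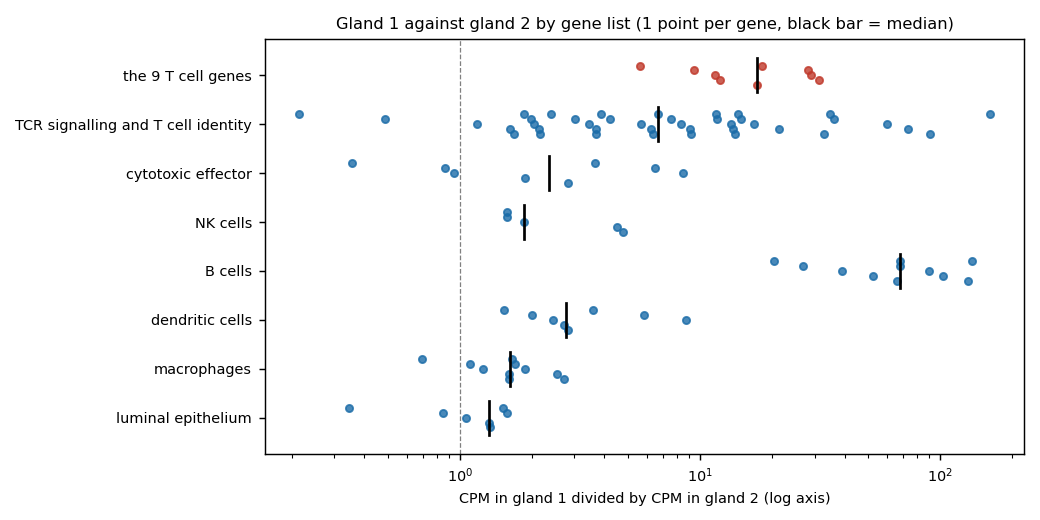
Ratio of CPM in gland 1 to CPM in gland 2 (log axis) for each gene with at least 3 counts in both glands, by gene list. Points are genes and black bars medians. The 9 T cell genes lie between 5.61 and 31.3, B cell genes lie higher with a median of 67.8, and macrophage genes lie near 1 with a median of 1.62.

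The question for primary untreated tumors against glands was how much T cell RNA a tumor holds compared with the tissue it arises from. All 9 members had lower fitted levels in the tumors, with log2 fold changes from -4.27 for Cd4 to -2.14 for Cd5 and a median of -3.45, against -0.02 over all 17135 genes tested. By edgeR's quasi-likelihood test with Benjamini-Hochberg adjustment, 1 of 9 was called at an adjusted p under 0.05, against 2.11% of all genes. This was Cd28, the costimulatory receptor, at a log2 fold change of -3.83 (SE 0.79, edgeR adjusted p = 0.0457). All 9 had an unadjusted p under 0.05, as did 24.5% of all genes.

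The other 8 had an adjusted p of 0.0616 or more. Cd3e had a log2 fold change of -3.45 (SE 0.97, edgeR adjusted p = 0.0792). Cd4 had one of -4.27 (SE 1.06, edgeR adjusted p = 0.0616). Cd8a had one of -2.54 (SE 1.05, edgeR adjusted p = 0.172). Every primary untreated tumor was below both glands for 2 members, Cd28 and Cd3g, where 39.2% of all genes did not overlap between these groups in either direction.

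Most of these differences depended on gland 1. Without it, no member was called, though 3381 genes were, the median log2 fold change of the members was -0.15 and that of Cd8a was 0.69 in the opposite direction. Cd28 stayed lower, at -2.07 (edgeR adjusted p = 0.0934). Without gland 2, 6 of 9 were called by edgeR, among 257 genes in all. In either case 1 gland is left, which is assumed to vary like the other groups. DESeq2 on all libraries called 8 of 9, among 2352 genes in all. The call of Cd28 was lost under 13 of 21 alternatives, with edgeR, voom or DESeq2 adjusted p-values from 7.9e-05 to 0.179. Its log2 fold change stayed between -3.86 and -3.30 where no library was left out and between -4.50 and -2.07 where 1 was.

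Of the 42 other genes of receptor signaling and T cell identity that were listed, 41 could be tested against the glands, 36 were lower in the primary untreated tumors and 6 of these were called. None was called higher, and the median log2 fold change was -3.05. The strongest was Ptpn22, a phosphatase that restrains receptor signaling, at 24.1 CPM in gland 1, 14.3 CPM in gland 2 and 1.24 to 4.24 CPM in the tumors. Il2ra, the alpha chain of the interleukin 2 receptor, was at 5.78 CPM in gland 1 and higher in gland 2 at 27.0 CPM, against 0.127 to 0.973 CPM in the tumors. Grap2, an adaptor, and Ccr7, the lymph node homing receptor, were also among the 6. The most abundant genes of that list, Gata3, Plcg1, Satb1 and Fyn, are also used by epithelial and other cells, and Gata3 was above both glands in 11 of 11 tumors. The constant regions of the T cell receptor chains were not analysed here.

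Genes of cytotoxic function had a median log2 fold change of -3.17 against the glands over the 8 tested, and none was called. Gzmb, the gene of granzyme B, was an exception in level, with 2.63 CPM in gland 1, 3.03 CPM in gland 2 and 0.326 to 5.62 CPM in the tumors, 5 of which were above both glands. Its log2 fold change in primary untreated tumors was -0.78 (SE 1.08, edgeR adjusted p = 0.669). Cd2, an adhesion receptor of the T cell identity list named after its values were seen, was at 15.2 CPM in gland 1 and at most 0.648 CPM in any tumor.

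Within the tumors the members were low and uneven. Per kb of exon, their mean level over 11 tumors was highest for Cd3g (1.16 CPM per kb), then Lck (0.804), Cd3e (0.781), Cd8a (0.505), Cd5 (0.441), Cd4 (0.325), Cd8b1 (0.203), Cd3d (0.172) and Cd28 (0.101). Neighbors in this order overlapped in their spread between tumors, and the mean of Cd3d was the lowest of the 3 CD3 chains.

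Cd3e was at 1.83, 0.53 and 1.02 CPM in the primary untreated tumors and at 1.29, 0.849 and 1.69 CPM in the primary stavudine tumors. It was at 0.88, 1.34 and 1.36 CPM in the recurrent 17-DMAG tumors and at 1.41 and 0.367 CPM in those regrown after both drugs. The group means were 1.13 ± 0.657 (SD, n = 3), 1.28 ± 0.419 (SD, n = 3), 1.20 ± 0.273 (SD, n = 3) and 0.887 ± 0.736 (SD, n = 2) CPM. All 4 groups overlapped, and the highest and lowest tumors came from different groups.

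Cd3g, the gamma chain, split the tumors more sharply. It was at 1.35, 0.122 and 1.14 CPM in primary untreated, at 1.40, 1.28 and 1.67 CPM in primary stavudine tumors. It was at 0.463, 1.79 and 1.64 CPM in recurrent 17-DMAG and at 1.74 and 0.408 CPM in recurrent 17-DMAG plus stavudine tumors. In 3 tumors, primary untreated 2, recurrent 17-DMAG 1 and recurrent 17-DMAG plus stavudine 2, it was below 0.5 CPM, and in the other 8 it was above 1. The same 3 tumors were the lowest in Cd3d, the delta chain, at 0.0815, 0.0926 and 0.163 CPM, against 0.21 to 0.536 CPM elsewhere.

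Lck, which encodes the kinase that starts receptor signaling, was at 2.09, 0.774 and 1.46 CPM in primary untreated tumors and at 2.05, 1.52 and 2.55 CPM in primary stavudine tumors. The recurrent 17-DMAG tumors had 1.83, 2.30 and 3.15 CPM, and the recurrent 17-DMAG plus stavudine tumors 1.99 and 0.775 CPM. The primary untreated 2 and recurrent 17-DMAG plus stavudine 2 tumors were again the lowest.

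Cd8a, the CD8 alpha chain, was at 3.01, 0.55 and 0.822 CPM in primary untreated and at 1.54, 1.09 and 2.45 CPM in primary stavudine tumors. The recurrent 17-DMAG tumors had 1.04, 2.39 and 1.85 CPM, and the recurrent 17-DMAG plus stavudine tumors 2.15 and 0.53 CPM. Primary untreated tumors alone spanned a 5.46-fold range, while the 4 group means lay between 1.34 and 1.76 CPM.

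Cd8b1, the beta chain with which CD8 alpha pairs on most cytotoxic T cells, was at 0.677, 0.122 and 0.321 CPM in primary untreated and 0.138, 0.218 and 0.38 CPM in primary stavudine tumors. It was at 0.232, 0.715 and 0.042 CPM in recurrent 17-DMAG and 0.352 and 0.122 CPM in recurrent 17-DMAG plus stavudine tumors. Per kb, Cd8b1 was 1.19 times Cd8a in gland 1 and 0.731 times in gland 2, and between 0.189 and 0.824 times in 10 of the tumors. In recurrent 17-DMAG 3, with 88 counts of Cd8a, Cd8b1 had 2 counts, under the floor, and no ratio is given.

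Cd5 varied least over the tumors, with an SD of 0.45 on the log2 scale, from 0.754 CPM in recurrent 17-DMAG plus stavudine 2 to 2.16 CPM in primary untreated 2. Its group means were 1.78 ± 0.538 CPM (SD, n = 3) in primary untreated and 1.39 ± 0.313 CPM (SD, n = 3) in primary stavudine tumors. They were 1.25 ± 0.362 CPM (SD, n = 3) in recurrent 17-DMAG and 0.954 ± 0.282 CPM (SD, n = 2) in recurrent 17-DMAG plus stavudine tumors. The groups overlapped, except that every primary untreated tumor was above both recurrent 17-DMAG plus stavudine tumors. The gap was narrow, with 1.163 CPM in the lowest of the former and 1.154 CPM in the highest of the latter. The difference between these groups was not tested.

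Cd28 was at 0.717, 0.774 and 0.321 CPM in primary untreated tumors and at 0.322, 0.0653 and 0.211 CPM in primary stavudine tumors. It was at 0.648, 0.357 and 0.294 CPM in recurrent 17-DMAG and at 0.704 and 0.408 CPM in recurrent 17-DMAG plus stavudine tumors. The primary stavudine group was lowest, and its highest tumor was just above the lowest primary untreated one.

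Cd4, the helper coreceptor, was at 0.617, 0.734 and 0.982 CPM in primary untreated tumors and at 0.737, 0.218 and 0.928 CPM in primary stavudine tumors. The recurrent 17-DMAG tumors had 1.64, 0.692 and 0.734 CPM. Both recurrent 17-DMAG plus stavudine tumors were higher, at 1.88 and 1.96 CPM, above all other tumors.

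The rank of a tumor therefore changed from one T cell gene to another, which was not tested. Recurrent 17-DMAG plus stavudine 2 was among the lowest 3 tumors for 7 of 9 members and yet the highest of all for Cd4. Primary untreated 2 was among the lowest 3 for 6 members and the highest for Cd5 and Cd28. Its lead over the next tumor, primary untreated 1, was small, at 2.16 against 2.01 CPM for Cd5 and 0.774 against 0.717 CPM for Cd28. Primary untreated 1 was among the highest 3 for 6 members. Summed over the 9 members, CPM ranged from 5.48 to 12.7 in the tumors, against 11.03 in gland 2 and 152.4 in gland 1.

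Cd3e was the member closest to the others: the SD of its difference from their mean, over 11 tumors on the log2 scale, was 0.37. Lck (0.46), Cd3d (0.47) and Cd8a (0.50) followed. Cd4 was the farthest with 1.05, next to Cd28 with 1.02. These are descriptions over 11 tumors that share the same scaling, with no test.

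**Figure D3:**
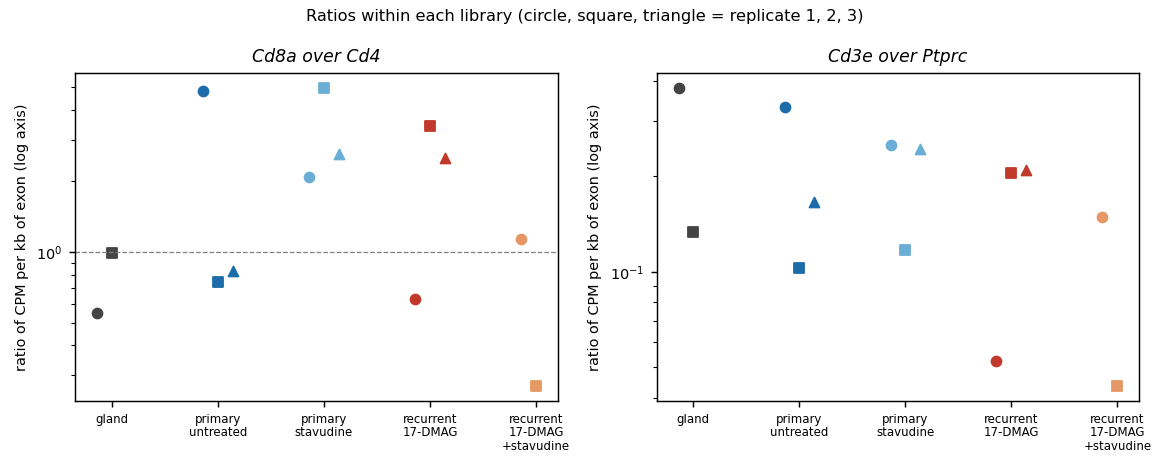
Within each library, the ratio of Cd8a to Cd4 and of Cd3e to Ptprc, each as CPM per kb of exon (log axes). Points are libraries by group. Cd8a over Cd4 runs from 0.269 to 4.96 in the tumors, and Cd3e over Ptprc from 0.0436 to 0.331, with gland 1 at 0.548 and 0.38 and gland 2 at 0.992 and 0.133.

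The balance of the coreceptors spread widely. Per kb, Cd8a over Cd4 was 4.83, 0.744 and 0.83 in primary untreated and 2.08, 4.96 and 2.62 in primary stavudine tumors. It was 0.629, 3.43 and 2.50 in recurrent 17-DMAG and 1.14 and 0.269 in recurrent 17-DMAG plus stavudine tumors. Gland 1 had 0.548 and gland 2 had 0.992. All 3 primary stavudine tumors were above both recurrent 17-DMAG plus stavudine tumors, where 35.3% of all genes did not overlap between these groups. Cd4 alone did not overlap between them, while Cd8a did. The value of 4.96, in primary stavudine 2, rests on 10 counts of Cd4. The ratio itself was not tested. Against Ptprc, the CD45 gene of all leukocytes, Cd3e per kb was 0.38 in gland 1 and 0.133 in gland 2. The tumors spanned the value of gland 2 and lay below that of gland 1, from 0.0436 in recurrent 17-DMAG plus stavudine 2 to 0.331 in primary untreated 1.

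Stavudine against untreated in primary tumors asks whether the inhibitor alone altered T cell RNA. No gene of 16870 was called by edgeR (0%; 634 had an unadjusted p under 0.05, and DESeq2 called 17), and 0 of 9 members were called by either tool. The members' log2 fold changes ran from -1.60 to 0.72 with a median of -0.03 (also -0.03 over all genes), and 4 were above 0. Cd28 had the smallest p, with a log2 fold change of -1.60 (SE 0.65, 95% interval -3.07 to -0.14, edgeR adjusted p = 0.9998).

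Cd3e differed by 0.16 (95% interval -1.14 to 1.47), Cd4 by -0.32 (-1.56 to 0.92) and Cd8a by 0.20 (-1.41 to 1.82) on the log2 scale. The intervals leave room for changes of more than 1 log2 unit in both directions for Cd3e and Cd8a. No member separated both groups, while 10.8% of all genes did.

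Recurrent 17-DMAG against primary untreated tumors asks the same of regrowth without stavudine. Again 0 genes were called by edgeR (0%; 1635 with an unadjusted p under 0.05, 61 by DESeq2), and 0 of 9 members by either tool. The members' log2 fold changes ran from -0.52 to 0.74 with a median of 0.07, and 0 of 9 separated the groups, against 15.1% of genes. Lck had the smallest p, with a log2 fold change of 0.74 (SE 0.47, edgeR adjusted p = 0.562). Cd3e differed by 0.07 (SE 0.58, edgeR adjusted p = 0.967), Cd4 by 0.38 (SE 0.55, edgeR adjusted p = 0.793) and Cd8a by 0.25 (SE 0.72, edgeR adjusted p = 0.896).

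Recurrent 17-DMAG plus stavudine against primary stavudine tumors gave the smallest p of any member in a tumor comparison. Cd4 was higher by 1.61 on the log2 scale (SE 0.60, 95% interval 0.26 to 2.97), with an unadjusted p of 0.0244 in edgeR and an adjusted p of 0.456. Both recurrent tumors were above all 3 primary stavudine tumors for Cd4 and for Cd28, that is for 2 of 9 members, against 35.3% of all genes. Cd28 differed by 1.47 (SE 0.71, edgeR adjusted p = 0.51). Cd3e differed by -0.52 (SE 0.66, edgeR adjusted p = 0.786) and Cd8a by -0.33 (SE 0.81, edgeR adjusted p = 0.898), so the shared chain and the cytotoxic coreceptor had fitted values on the other side of 0. No member was called, and no gene (0%; 1696 with an unadjusted p under 0.05, 331 by DESeq2, none of them a member).

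**Figure D4:**
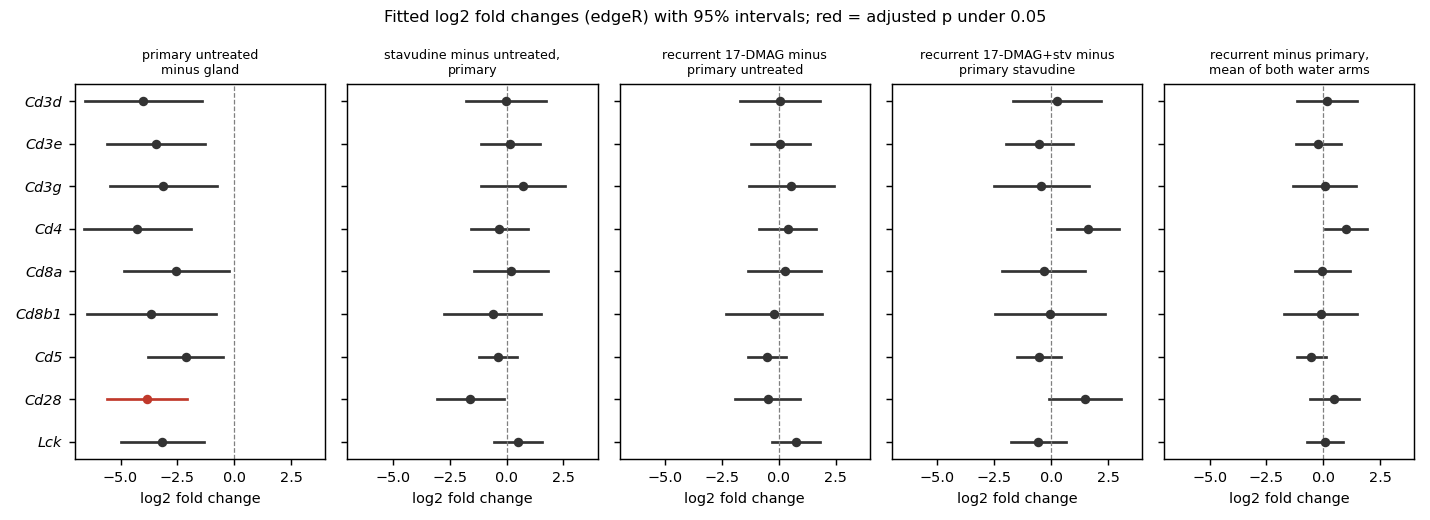
Fitted log2 fold change (edgeR, x axis) with its 95% interval for each of the 9 genes in 5 comparisons. Red marks an adjusted p under 0.05. Against the glands all 9 lie below 0 and Cd28 alone is red. In the tumor comparisons none is red, and the interval excludes 0 for Cd28 under stavudine in primary tumors and for Cd4 in the last 2 panels.

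Stavudine against none in recurrent tumors shares the recurrent 17-DMAG plus stavudine libraries with that comparison. Cd4 differed by 0.91 (SE 0.60, edgeR adjusted p = 0.789), Cd3e by -0.42 (SE 0.66, edgeR adjusted p = 0.941) and Cd8a by -0.38 (SE 0.81, edgeR adjusted p = 0.957). Both stavudine tumors were above the others for 1 of 9 members, Cd4, against 21.5% of all genes without overlap. None of the 9 was called, and 0% of genes were (1323 with an unadjusted p under 0.05, 277 by DESeq2).

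Averaged over both water arms, recurrent against primary tumors also gave Cd4 the smallest p of the members. This average reuses all libraries of the comparisons above, so it is no independent repeat of the Cd4 difference under stavudine. Its mean was 1.38 CPM in 5 recurrent and 0.703 CPM in 6 primary tumors, with a log2 fold change of 1.00 (SE 0.41, 95% interval 0.08 to 1.91). Its unadjusted p was 0.0362 in edgeR and its adjusted p 0.343. Cd3e differed by -0.22 (SE 0.44, edgeR adjusted p = 0.838) and Cd8a by -0.04 (SE 0.54, edgeR adjusted p = 0.98). No member separated recurrent from primary tumors, as 1.34% of genes did, and 0% of genes were called (2296 with an unadjusted p under 0.05, 419 by DESeq2, none of them a member).

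The difference between both recurrence effects, the interaction of recurrence and stavudine, was called for 0 of 9 members and 0% of genes (1322 with an unadjusted p under 0.05, 189 by DESeq2). Cd28 had the smallest p, with 1.97 on the log2 scale (SE 0.95, edgeR adjusted p = 0.655). Cd4 had 1.23 (SE 0.82, edgeR adjusted p = 0.744), Cd3e -0.59 (SE 0.88, edgeR adjusted p = 0.916) and Cd8a -0.58 (SE 1.08, edgeR adjusted p = 0.938). Of the 41 tested genes of receptor signaling and T cell identity, 0 were called in any of the 6 tumor comparisons.

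Cd4 and the summed macrophage markers were highest in the same 3 tumors. The 3 tumors highest in Cd4, recurrent 17-DMAG 1 and both recurrent 17-DMAG plus stavudine tumors, were at 1.64 to 1.96 CPM, against 0.218 to 0.982 CPM in the other 8. The same 3 were the highest in the summed macrophage genes (302.7 to 656.7 CPM, against 187.5 to 254.2). Within the 3 the order was not kept, as recurrent 17-DMAG 1 had the most macrophage RNA and the least Cd4. Of those 10 genes, 6 by themselves separated these tumors from the other 8. The share of all genes that separate this split was not counted. The 6, and the counts for the other lists below, therefore have no background to be read against. Csf1r, the growth factor receptor of macrophages, was at 56.3 to 104.8 CPM there and at 36.2 to 51.6 CPM elsewhere. Ptprc was at 29.5 to 58.8 against 18.0 to 25.4 CPM.

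Of the 8 dendritic cell genes, 1 separated the same tumors: Itgax, the CD11c gene that macrophages can express too, at 20.7 to 24.2 against 5.29 to 11.9 CPM. The summed dendritic cell genes were at 30.5 to 37.2 CPM there and 14.6 to 22.7 CPM elsewhere, but without Itgax the sums overlapped, at 7.41 to 14.2 and 6.56 to 10.7 CPM. Flt3, encoding a growth factor receptor of dendritic cells, also overlapped, at 0.352 to 0.810 and 0.211 to 0.762 CPM. In recurrent 17-DMAG plus stavudine against primary stavudine tumors, 4 of these 8 genes had fitted values above 0 and 4 below, with a median of -0.35 and none called.

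Cd3e did not separate these tumors, with 0.367 to 1.41 CPM in the 3 and 0.53 to 1.83 CPM in the 8. Of the 3 tumors highest in macrophage genes, 0 were among the 3 highest in Cd8a, Cd8b1, Cd5 or Lck, and 1 was for each of Cd3d, Cd3e, Cd3g and Cd28. Of the 10 macrophage genes measured, none was at 0 in every library of a group. The tumors were compared after these values were known, and the part of macrophages or dendritic cells in the Cd4 values was not tested.

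**Figure D5:**
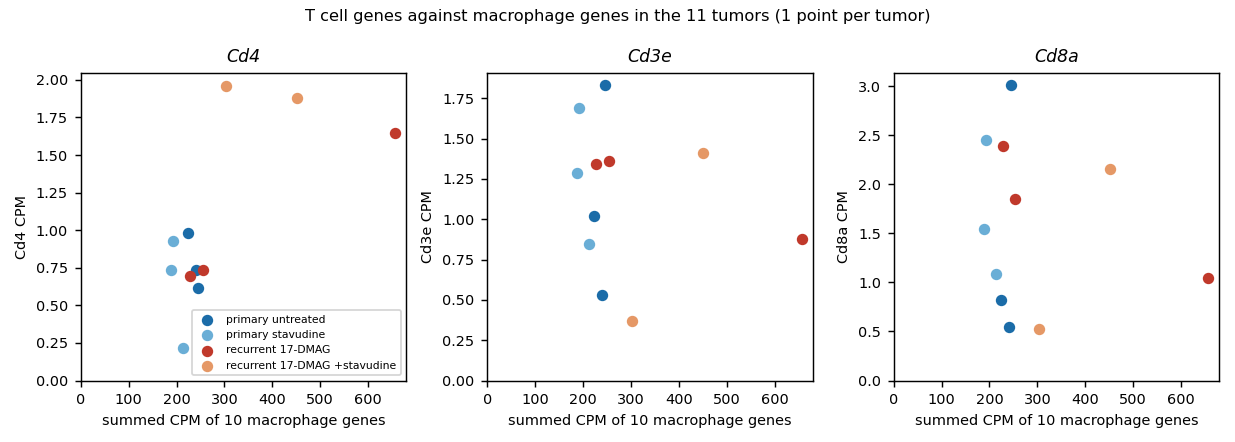
CPM of Cd4, Cd3e and Cd8a (y axes) against the summed CPM of 10 macrophage genes (x axes) in the 11 tumors, 1 point per tumor, colored by group. The 3 tumors with the most macrophage RNA (302.7 to 656.7 CPM) have 1.64 to 1.96 CPM of Cd4, above the other 8, while their Cd3e (0.367 to 1.41 CPM) overlaps the others.

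Some genes outside the macrophage list separated these tumors as well, again without a share of all genes to set beside the counts. Of 6 general leukocyte genes, 4 were higher in all 3 of these tumors than in the other 8 (Ptprc, Cd53, Laptm5 and Cd48). Of the 42 genes of receptor signaling and T cell identity, 3 were (Vav1, Fyb and Thy1) and 1 was lower in all 3. No gene of the B cell, NK cell or cytotoxic lists was higher in all 3, though 2 of the 3 were among the 3 highest in summed B cell genes. The 12 B cell genes summed to 3.98 to 8.93 CPM in the tumors, against 345.4 CPM in gland 1. The 7 NK cell genes summed to 1.35 to 2.99 CPM in the tumors, with Klra4 and Klra8 at 0 throughout. The 10 cytotoxic genes summed to 1.79 to 11.3 CPM and were highest in recurrent 17-DMAG 2 and 3 and recurrent 17-DMAG plus stavudine 1.

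The genes whose pattern over the 11 tumors was most like the mean of the 9 members were Slc22a15, Tmem125, Klhl21, Trafd1, Dtx3l, Als2cl, Fbxw17 and Adar, by the SD of the log2 difference over 13663 genes. That SD was 0.22 for Slc22a15 and 0.29 for Adar, against a median of 0.55, and a gene with no variation would have had 0.47. None of the other T cell genes was among the 30 most like. Of the 8 named, 3 stayed among the first 8 without primary untreated 2, so the ranking leans on that tumor.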

How the data were processed

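The deposited values are raw read counts per gene, 1 column per library and not normalized. Per the study's methods and the submitters' processing notes, the authors depleted ribosomal RNA from total RNA, made libraries that mark the strand, aligned reads to mm10/GRCm38 with STAR and counted them with featureCounts (Subread 1.6.2), with bcl2fastq 2.20 for the base calls. The STAR version and the strand setting of the counting are not given in the sources used here. The group of genes was proposed, and the lists and tests chosen, with earlier results of these data known, although its rule takes genes by symbol alone.

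Genes kept by filterByExpr were tested with edgeR 4.0.16 in R 4.3.3 (TMM factors, robust quasi-likelihood test, two-sided, Benjamini-Hochberg over all genes of a contrast). All 13 libraries (17135 genes) entered the gland contrast, and 11 libraries (16870 genes) the tumor contrasts. All 9 members passed the filter. The biological coefficient of variation was 0.431 and 0.402. TMM factors were 0.493 in gland 2 and 0.999 to 1.12 elsewhere. The script was checked on simulated counts. Alternatives were DESeq2 1.42.0 and limma 3.58.1 (voom), no low-count filter, other scalings, the libraries of a contrast alone, a replicate block and leaving out each library. Counts halved to read pairs were added after the data were seen. Positions and exon lengths came from GENCODE M21 (GRCm38) and promoters from RefSeq (GRCm38.p6). Members are named in every library. Fitted values are given for Cd3e, Cd4, Cd8a, called members and the member with the smallest p, and from other lists up to 4 abundant and 4 called genes. Some genes of these lists are not reported here by name.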

Additional observations from a re-analysis of the deposited data

How the results depend on the processing

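In the 6 tumor comparisons, 0 of 9 members were called under every alternative run. Against the glands, the count of members called (1) was 0 to 6 when single libraries were left out and the count of genes (361) was 0 to 3381. It was 8 members and 2352 genes with DESeq2, and 0 and 0 with the libraries of the contrast alone. With a replicate block it was 0 members and 4 genes. No pairing by replicate number was seen: 2 of 15 same-number pairs had a correlation over 0.1 (range -0.295 to 0.222), against 13 of 30 other pairs. Of 11 tumors, 2 correlated best with their own number, and the paired fit changed no other call. In the group with 2 libraries such correlations mirror each other, so they cannot exclude a pairing. Leaving out primary untreated 1, 2 or 3 gave 0 members, as did leaving out recurrent 17-DMAG 2 or 3 or any stavudine tumor, and leaving out recurrent 17-DMAG 1 gave 2.

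With DESeq2, genes called numbered 17 for stavudine in primary tumors, 61 for recurrent 17-DMAG, 331 for recurrent 17-DMAG plus stavudine against primary stavudine, 277 for stavudine in recurrent tumors, 419 for recurrence averaged and 189 for the interaction. With single libraries left out, the highest counts in the same order were 0, 1, 100, 141, 6 and 77, and the lowest 0. The libraries of the contrast alone gave 2 genes for recurrent 17-DMAG plus stavudine against primary stavudine.

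Directions of Cd3e, Cd4 and Cd8a turned when single tumors were left out. Cd3e ranged from -0.16 to 0.70 for stavudine in primary tumors, -0.26 to 0.60 for recurrent 17-DMAG, -1.80 to 0.14 for recurrent 17-DMAG plus stavudine against primary stavudine, -1.70 to 0.23 for stavudine in recurrent tumors, -0.86 to 0.11 for recurrence averaged and -1.88 to 0.0509 for the interaction. In the same order Cd8a ranged from -0.17 to 1.28, -0.13 to 1.34, -1.68 to 0.34, -1.73 to 0.29, -0.71 to 0.50 and -1.95 to 0.073. Against the glands it ranged from -3.63 to 0.69. Cd4 ranged from -0.71 to 0.0949 for stavudine in primary tumors and from -0.12 to 0.63 for recurrent 17-DMAG. With the replicate block, Cd8a in recurrence averaged was 0.0511. The cause of these changes was not tested. Low counts limit Cd3d, Cd8b1 and Cd28 most.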
